A study of Oryza sativa Indica Group with 23 samples.

Results

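Nrat1, MRS2-E and MRS2-A are 3 rice genes for transporters that move aluminium or magnesium across membranes, and they were measured in roots by 3 probe sets, 1 per gene. They were chosen because the single gene of a probe set carried one of these symbols in the RefSeq gene table, out of 17905 genes and 57194 rice probe sets on the array. The choice was made with their levels over the genotype-by-treatment groups in view, so their salt and genotype differences are given below as descriptions, with an error and no test. In the RefSeq gene table Nrat1 is LOC4328200, MRS2-E, also named OsMGT1, is LOC4324927 and MRS2-A is LOC4333741. No coordinates are printed, since none of the sources used here names a genome build for the annotation of the array.

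The arrays held root RNA of 4 indica genotypes, FL478, IR29, IR63731 and Pokkali, each salt-treated and untreated. As background, Pokkali is a salt-tolerant landrace, IR29 a salt-sensitive variety, and FL478 an inbred line bred from a cross of these. Seedlings stood in sand tanks fed with nutrient solution; for the salt groups NaCl and CaCl2, in molar parts of 5 to 1, were added from day 22 onward, in 2 steps within 3 days, until the solution reached 7.4 dS per m, and salt and control plants alike were harvested on day 30. Salt roots therefore also received calcium chloride. Each group had 3 arrays, except IR29 control with 2, labelled as biological replicates, and no label says whether a replicate pooled several plants. P-values below measure only the spread between these samples.

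Values are log2 expression made with RMA (robust multi-array average), and array medians over rice probe sets lay between 4.31 and 4.41. Arrays were placed between genotypes by probe sets at least 2 log2 units away in 1 genotype from the other 3, and 20 arrays lay at 0.920 to 1.045 of the way toward their own labelled genotype. The other 3 lay between genotypes: FL478 salt replicate 2 (0.387 toward FL478, 0.598 toward IR63731), FL478 control replicate 3 (0.806 toward FL478, 0.218 toward IR63731) and IR29 control replicate 1 (0.548 toward IR29, 0.479 toward IR63731). Where leaving them out moved a salt or genotype difference by over 1.5 times, or changed whether its interval held 0 or whether it passed, the value without them is given beside it. Root transporter genes were high on every array (the silicon channel LSI1 at 12.74 to 13.74, the silicon exporter LSI2 at 11.08 to 12.61), while of the seed storage genes GLUA1 was at 2.58 to 3.03 and GLUA2 at 7.43 to 8.58, above the array medians. Of the photosynthesis genes RBCS was at 6.35 to 6.89 and CAB2R ranged from 4.55 to 9.54. The part of these genes in the results was not tested. In root RNA, fewer cells of a type and less RNA per cell cannot be told apart.

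As background, Nrat1 is a plasma-membrane member of the NRAMP family of metal transporters that takes up trivalent aluminium into rice root cells, from where aluminium can be stored in vacuoles. MRS2 proteins are relatives of the bacterial magnesium channel CorA, and MRS2-E (OsMGT1) is a plasma-membrane magnesium transporter that has been linked in rice both to aluminium tolerance, through the zinc finger factor ART1, and to salt tolerance, through the sodium transporter HKT1;5. MRS2-A is named in protein databases as a chloroplast member of the family.

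Nrat1 was higher in salt roots of all 4 genotypes, by 0.77 log2 units (SE 0.09, 95% interval 0.58 to 0.96) or 1.71-fold in the mean of the genotypes. In FL478 it stood at 10.68, 10.26 and 10.48 in salt roots, against 9.27, 9.47 and 9.95 in control roots. In Pokkali it stood at 10.80, 11.03 and 10.68 in salt roots, against 9.62, 9.78 and 9.74 in control roots. In each of these genotypes every salt array lay above every control array. In IR63731 Nrat1 was at 10.85, 10.90 and 10.79 in salt roots, against 10.01, 9.96 and 10.64 in control roots. In IR29 it was at 10.98, 11.25 and 10.86 in salt roots, against 10.58 and 10.66 in control roots. These 2 genotypes also had no overlap between treatments, but IR63731 control replicate 3 came within 0.15 of the salt array with the same number. Among all probe sets 0.587% had every salt array above every control array in each of the 4 genotypes, and nothing is read from this, since the choice of Nrat1 used these groups.

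**Figure D1:**
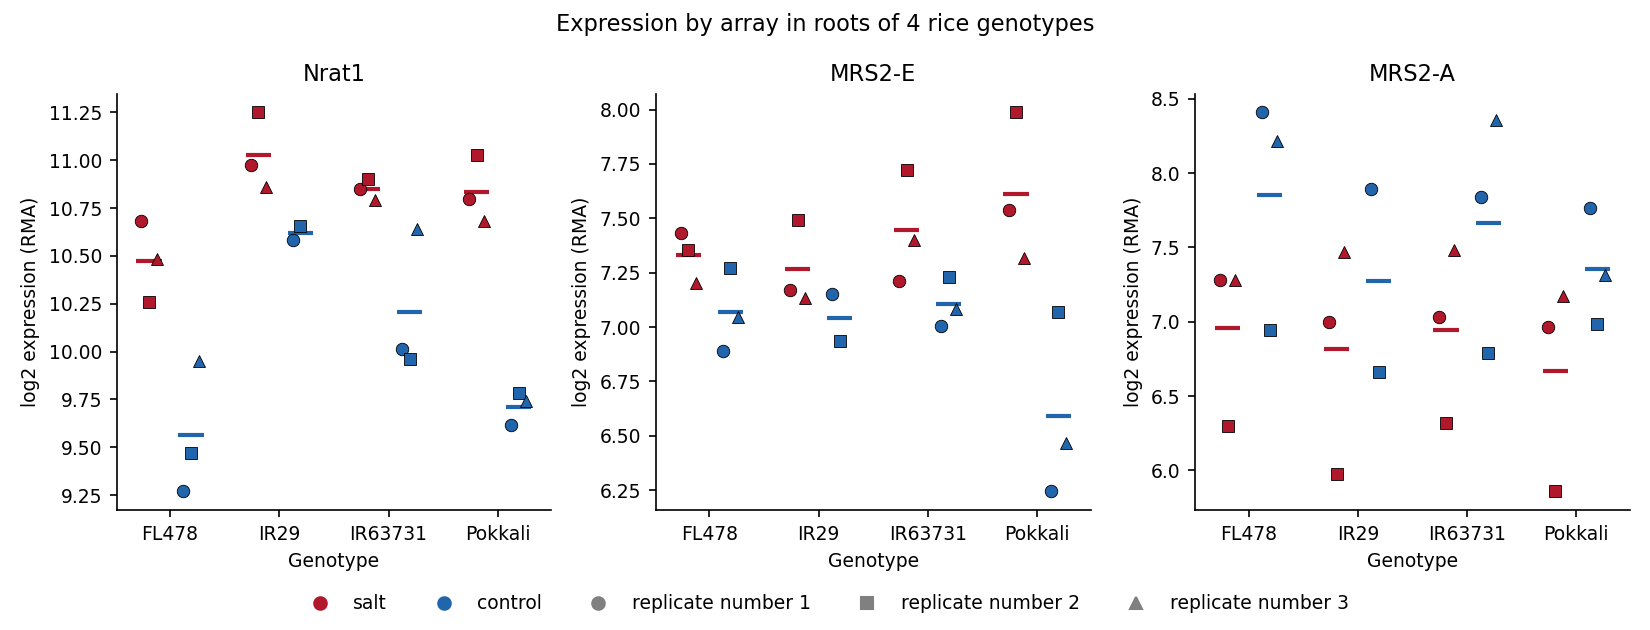
Log2 expression (RMA, y axis) of Nrat1, MRS2-E and MRS2-A on each of the 23 arrays, by genotype (x axis), salt in red left of control in blue, with the marker shape giving the replicate number and a line at each group mean. Nrat1 salt arrays lie above the control arrays in each of the 4 genotypes, and the squares of replicate number 2 are the lowest points of MRS2-A in all 8 groups.

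The salt-minus-control difference of Nrat1 was 1.12 (SE 0.18) in Pokkali, 0.91 (SE 0.18) in FL478, 0.64 (SE 0.18) in IR63731 and 0.41 (SE 0.20, 95% interval -0.01 to 0.82) in IR29. The difference in Pokkali exceeded that in IR29 by 0.71 (SE 0.27, 95% interval 0.16 to 1.27). The intervals of the differences between FL478 and IR29 (0.50, SE 0.27, interval -0.06 to 1.06) and between Pokkali and FL478 (0.21, SE 0.25, interval -0.31 to 0.74) included 0. Without the 3 arrays between genotypes the mean was 0.84 (SE 0.09), FL478 stood at 1.21 (SE 0.19) and IR29 at 0.37 (SE 0.22). The FL478 difference then exceeded that of IR29 by 0.84 (SE 0.29), with an interval of 0.22 to 1.46 that no longer included 0, and Pokkali minus FL478 changed sign to -0.09 (SE 0.25, interval -0.61 to 0.44).

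The group means of Nrat1 spanned 10.48 to 11.03 in salt roots and 9.56 to 10.62 in control roots. Among control groups Nrat1 averaged 9.56 ± 0.35 in FL478, 9.71 ± 0.09 in Pokkali and 10.21 ± 0.38 in IR63731 (SD, n = 3 each), and 10.62 ± 0.05 in IR29 (SD, n = 2). FL478 control roots were 1.06 (SE 0.20) below IR29 control roots, and Pokkali control roots 0.91 (SE 0.20) below them. The FL478 and Pokkali control roots differed by 0.15 (Pokkali minus FL478, SE 0.18, 95% interval -0.22 to 0.52). Without the 3 arrays between genotypes that difference was 0.34 (SE 0.18, interval -0.03 to 0.71). The log2 difference of FL478 from IR29, then a single control array, was -1.29 (SE 0.24) in the same fit.

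Among salt roots Nrat1 averaged 10.48 ± 0.21 in FL478, 10.84 ± 0.18 in Pokkali, 10.85 ± 0.06 in IR63731 and 11.03 ± 0.20 in IR29 (SD, n = 3 each). Salt roots of FL478 were 0.55 below those of IR29 (log2 difference -0.55, SE 0.18), while Pokkali (-0.19, SE 0.18) and IR63731 (-0.18, SE 0.18) lay within the spread of IR29. In the order of all 8 group means, IR29, IR63731 and Pokkali salt roots came highest. The lowest of these 9 arrays (10.68) lay just above the arrays of the next group, IR29 control (10.58 and 10.66, replicate 1 between genotypes). No share over all probe sets is given for this gap, and nothing is read from it. FL478 salt and IR63731 control roots followed, with overlapping arrays, and Pokkali and FL478 control roots were lowest. These last groups overlapped through FL478 control replicate 3 (9.95), an array between genotypes. The other FL478 control arrays (9.27 and 9.47) lay below every Pokkali control array (9.62 to 9.78), a gap also given without its share. Salt roots of FL478 thus stood beside control roots of the salt-sensitive IR29 in this order, and the arrays of these groups overlapped.

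MRS2-E was also higher in salt roots, by 0.46 log2 units (SE 0.10, 95% interval 0.25 to 0.67) or 1.38-fold in the mean of 4 genotypes, with the largest of the 4 differences in Pokkali. In Pokkali it stood at 7.54, 7.99 and 7.32 in salt roots, against 6.25, 7.07 and 6.47 in control roots, with no overlap. In FL478 it was at 7.43, 7.35 and 7.20 in salt roots, against 6.89, 7.27 and 7.05 in control roots, which overlapped. IR63731 had 7.21, 7.72 and 7.40 in salt roots, against 7.01, 7.23 and 7.08 in control roots, and IR29 had 7.17, 7.49 and 7.13 in salt roots, against 7.15 and 6.94 in control roots. All 12 salt arrays were above the control mean of their own genotype, but of the 4 genotypes Pokkali alone separated the treatments, as did 7.78% of all probe sets in that direction. No share over all probe sets is given for the count of 12. Nothing is read from either count, since the choice of MRS2-E used these groups. Without IR29 control replicate 1 (7.15), an array between genotypes, the remaining IR29 control array (6.94) lay below all IR29 salt arrays.

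The salt-minus-control difference of MRS2-E was 1.02 (SE 0.19, 95% interval 0.61 to 1.43) or 2.03-fold in Pokkali, 0.34 (SE 0.19) in IR63731, 0.26 (SE 0.19) in FL478 and 0.22 (SE 0.22) in IR29, and the last 3 intervals included 0. With the replicate number as a block the interval in IR63731 was 0.03 to 0.65 around the same 0.34 and did not include 0, while those in FL478 and IR29 still did. Pokkali's difference exceeded that of IR29 by 0.80 (SE 0.29, 95% interval 0.19 to 1.41) and that of FL478 by 0.76 (SE 0.27, 95% interval 0.19 to 1.33). Without the 3 arrays between genotypes the mean difference was 0.48 (SE 0.12), and Pokkali exceeded IR29 by 0.69 (SE 0.36) with an interval of -0.08 to 1.46 that included 0. Control roots averaged 6.59 ± 0.42 in Pokkali, 7.07 ± 0.19 in FL478 and 7.11 ± 0.11 in IR63731 (SD, n = 3 each), and 7.04 ± 0.15 in IR29 (SD, n = 2). Salt roots averaged 7.61 ± 0.34 in Pokkali, 7.33 ± 0.12 in FL478, 7.44 ± 0.26 in IR63731 and 7.27 ± 0.20 in IR29 (SD, n = 3 each). In the order of the 8 means Pokkali thus stood both first, in salt, and last, in control, and every pair of neighbours in that order overlapped.

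MRS2-A went the other way: it was lower in salt roots by 0.69 log2 units (log2 difference -0.69, SE 0.26, 95% interval -1.24 to -0.14), or 1.62-fold. In FL478 it stood at 7.28, 6.30 and 7.28 in salt roots, against 8.41, 6.94 and 8.21 in control roots. In IR63731 it stood at 7.03, 6.32 and 7.48 in salt roots, against 7.84, 6.79 and 8.36 in control roots. The middle value of each of these trios, replicate 2, was the lowest. In Pokkali it stood at 6.96, 5.86 and 7.17 in salt roots, against 7.77, 6.98 and 7.32 in control roots, and in IR29 at 7.00, 5.98 and 7.47 in salt roots, against 7.89 and 6.66 in control roots. The treatments overlapped in each of the 4 genotypes, although 11 of 12 salt arrays were under the mean of their own genotype's control arrays. No share over all probe sets is given for this count. Nothing is read from it, since the choice of MRS2-A used these groups.

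The salt-minus-control difference of MRS2-A was -0.90 (SE 0.51) in FL478, -0.72 (SE 0.51) in IR63731, -0.69 (SE 0.51) in Pokkali and -0.46 (SE 0.57) in IR29. Each of these intervals included 0. Without the 3 arrays between genotypes the mean was -0.41 (SE 0.29, 95% interval -1.02 to 0.20), FL478 had -0.39 (SE 0.60), and IR29, left with 1 control array, had the opposite sign (0.15, SE 0.69). Group means from 6.67 ± 0.71 in Pokkali salt roots to 7.86 ± 0.80 in FL478 control roots (SD, n = 3 each) formed an order in which all neighbours overlapped. With the replicate number as a block, the mean difference was -0.75 and its SE 0.09 (95% interval -0.95 to -0.55), with -0.90 in FL478, -0.72 in IR63731 and -0.69 in Pokkali (SE 0.18 each) and -0.68 (SE 0.21) in IR29.

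**Figure D2:**
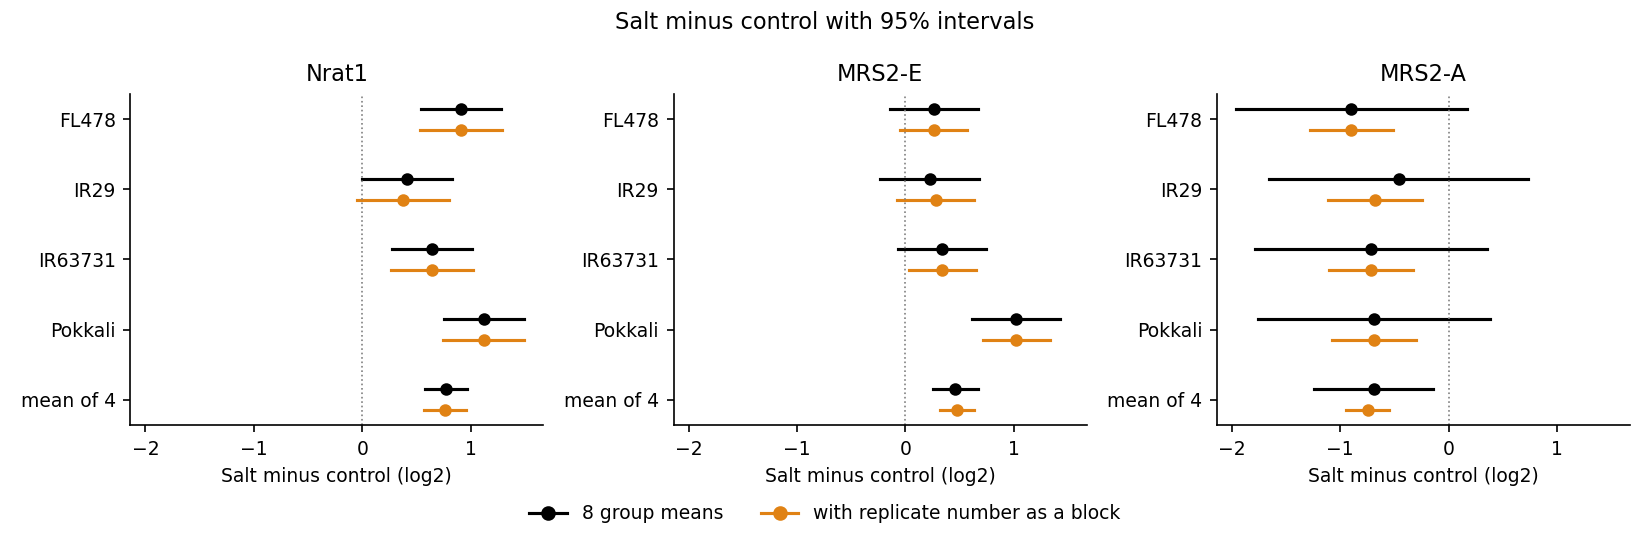
Salt minus control (log2, x axis) with its 95% interval for each member in each genotype and in the mean of 4, from 8 group means (black) and with the replicate number as a block (orange). The block leaves Nrat1 about where it was (mean 0.77 and 0.76 with the block) and narrows the interval of MRS2-A, whose mean is -0.69 without it and -0.75 with it.

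Within pairs of the same genotype and replicate number the 3 genes kept 1 direction each. Nrat1 was higher in salt in all 11 pairs (0.15 to 1.41, median 0.84), as was MRS2-E (0.02 to 1.29, median 0.49), and so were 2.54% of all probe sets. MRS2-A was lower in salt in all 11 pairs (-1.13 to -0.14, median -0.81), and so were 1.71% of all probe sets. Nothing is read from these shares, since the members were chosen on the same groups. What a number stands for is not in the labels, and deviations from the group means went together in every pair of FL478 and IR63731 but not of IR29 and Pokkali.

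The replicate number was not used to choose the members, so differences between numbers were tested, with limma across all probe sets and Benjamini-Hochberg adjustment. MRS2-A was lowest on the number 2 array in 8 of 8 groups, a count given without its share over all probe sets. It ranged from 5.86 to 6.98 (median 6.49) on the 8 arrays of number 2, and from 6.96 to 8.41 (median 7.47) on the other 15. Number 3 exceeded number 2 by 1.18 log2 units (SE 0.12, limma adjusted p = 1.921e-05), and number 2 lay below number 1 by a log2 difference of -1.04 (SE 0.11, limma adjusted p = 0.0001856). The background of this comparison was 2.78% of all probe sets higher in number 3 and 3.37% lower. Numbers 3 and 1 differed by 0.13 (limma adjusted p = 0.6316).

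The difference of MRS2-A between numbers 3 and 2 was present within each treatment, at 1.24 among salt arrays (limma adjusted p = 0.0005027) and 1.07 among control arrays (limma adjusted p = 0.03711). It was 1.20 without the 3 arrays between genotypes (limma adjusted p = 0.0004882). The mean salt difference of the same gene was -0.69, and these sizes were not tested against each other.

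Between numbers 3 and 2 MRS2-E had the opposite sign to MRS2-A. Number 2 was its highest array in 6 of 8 groups, against 5 of 8 for Nrat1. These counts too are given without their share over all probe sets, and nothing is read from them. MRS2-E ranged from 6.94 to 7.99 on number 2 arrays and from 6.25 to 7.54 on the others. Number 3 minus number 2 was -0.32 (SE 0.09, limma adjusted p = 0.05733), which missed the threshold. It was -0.44, and passed, without the 3 arrays between genotypes (limma adjusted p = 0.01202). Nrat1 had 0.069 (SE 0.11, limma adjusted p = 0.8251), and -0.075 without the 3 arrays (limma adjusted p = 0.8423). The 95% interval with all arrays ran from -0.17 to 0.31.

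**Figure D3:**
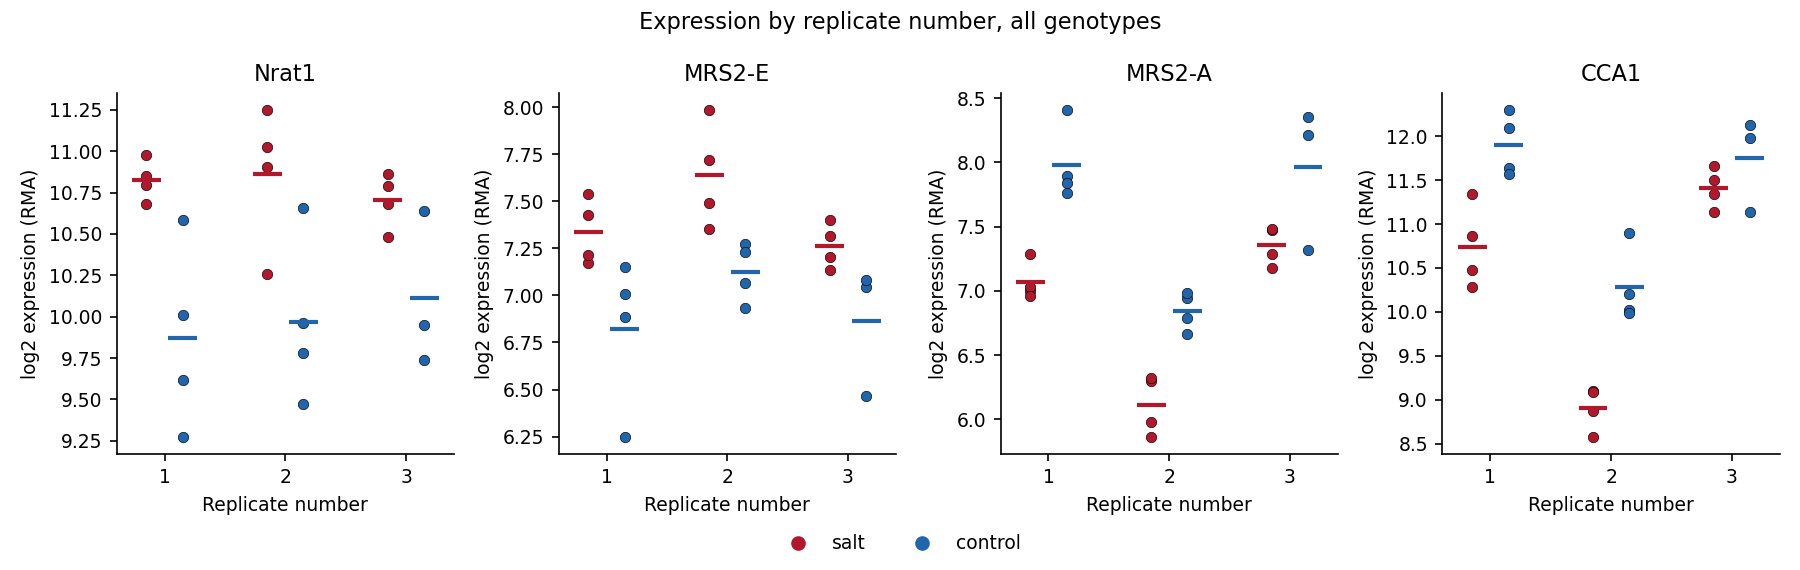
Log2 expression (RMA, y axis) of Nrat1, MRS2-E, MRS2-A and the clock gene CCA1 by replicate number (x axis), salt in red left of control in blue, each point an array and each line a mean over genotypes. MRS2-A and CCA1 are both low on arrays of number 2, in salt and in control alike, and Nrat1 is not.

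The named gene most like MRS2-A over the 23 arrays was CCA1, a dawn-phased transcription factor of the plant circadian clock, with Pearson r = 0.956 among 2457 named genes. It was also first by Spearman correlation and by the 8 group means. The likeness held within each replicate number, with r of 0.945 and 0.920 over the 8 arrays of numbers 1 and 2 and 0.927 over the 7 of number 3, and it was 0.957 for deviations from the group means. These correlations describe arrays that share genotype, treatment and number. CCA1 is read by the brighter of its probe sets. The other one differed by 0.05 between numbers 3 and 2, against 2.06 for the first.

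CAX3, a cation/proton exchanger gene, had r = 0.915 with MRS2-A, and ALADH had r = 0.900. Both genes were higher in number 3 than in number 2, CAX3 by 0.31 (limma adjusted p = 0.001677) and ALADH by 0.44 (limma adjusted p = 0.002945). They were picked for their likeness to MRS2-A, which differed between these numbers, so nothing is read from these p-values. CCA1 was lower in salt than in control in all 11 pairs of the same number, as MRS2-A was. A per-array value made of the dusk-phased clock genes PCL1, PRR1 and GI less CCA1 averaged -1.14 in salt roots and -2.98 in control roots, and 0.51 on number 2 arrays against -2.89 on number 1 and -3.92 on number 3. With that value as a covariate, the mean salt difference of MRS2-A was -0.22 (SE 0.10, 95% interval -0.42 to -0.01), that of MRS2-E 0.34 (SE 0.09, 95% interval 0.16 to 0.52) and that of Nrat1 0.77. The covariate itself contains CCA1, the named gene most like MRS2-A, and differed between treatments. Fits with it, here and below, therefore cannot separate its part from that of salt.

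**Figure D4:**
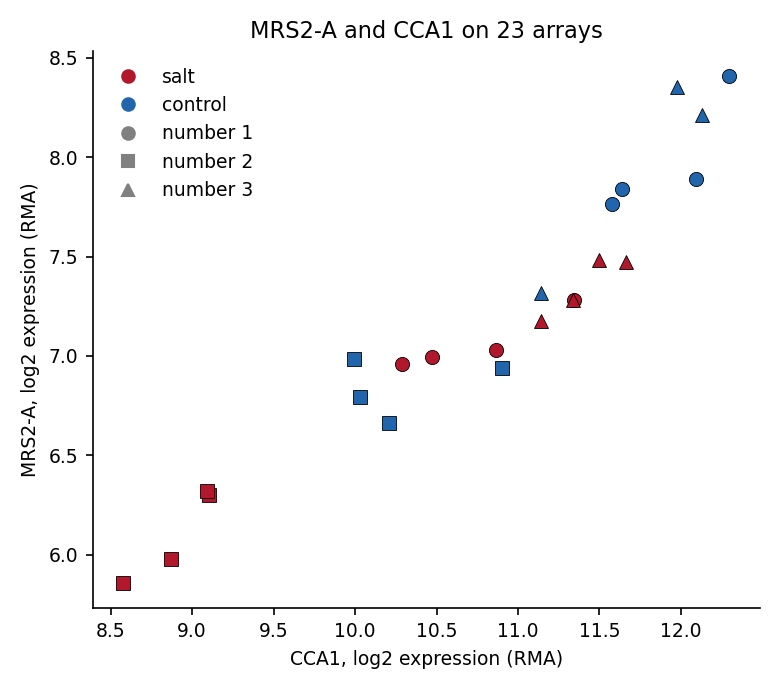
MRS2-A (y axis) against CCA1 (x axis), both log2 expression (RMA), on 23 arrays, with salt in red, control in blue and the marker shape giving the replicate number. The 4 salt arrays of number 2 are lowest for both genes, and r is 0.956 over all arrays.

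The genes most like Nrat1 over the 23 arrays were WDR12 (r = 0.854), whose relatives in yeast and mammals act in ribosome assembly, TCTP (r = 0.847), the translationally controlled tumour protein gene, and GL2-4 (r = 0.833), a homeodomain gene. For deviations from the group means, r was 0.439 for WDR12, 0.481 for TCTP and 0.245 for GL2-4, lower than over the arrays as they stand. The genes most like MRS2-E were the cyclin gene CYCT1-1 (r = 0.853), the FtsH protease gene FTSH4 (r = 0.838) and the homeobox gene HOS59 (r = 0.812). Within groups their r was 0.811, 0.786 and 0.690. Between the members, r over the 23 arrays was 0.640 for Nrat1 with MRS2-E, -0.464 for Nrat1 with MRS2-A and -0.594 for MRS2-E with MRS2-A. For deviations from the group means it was 0.333, 0.009 and -0.624 for the same pairs.

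Genes of the same families and of aluminium tolerance, sodium transport and cation exchange were tested for salt against control, since the choice of members did not use them. Their lists were still chosen with earlier results of these data known, so the tests and shares below are not blind to the data. Of 26 such genes measured, 3 were higher and 1 lower in the mean of 4 genotypes (limma adjusted p under 0.05), which is 11.5% and 3.85%, against 4.95% higher and 3.36% lower among all probe sets. Their median difference was 0.03, against -0.01 over all probe sets. All probe sets include 34663 with no gene listed, while each list gene was read at its probe set with the highest mean. No share matched on signal is given, so nothing is read from these shares. None of the 5 other MRS2 genes passed by limma, although 4 had an unadjusted p under 0.05, and their median was -0.18. No share over all probe sets is given at an unadjusted p, here or below, so nothing is read from such counts. MRS2-I, the MRS2 gene with the highest mean signal, had -0.23 (SE 0.09, limma adjusted p = 0.1375), and MRS2-B had -0.21 (SE 0.06, limma adjusted p = 0.05306). MRS2-F, at 0.14 (limma adjusted p = 0.08772), was the 1 gene of these 5 with an estimate above 0, the sign of MRS2-E. With the clock covariate MRS2-F passed (0.19, limma adjusted p = 0.02004), as did NRAMP3 (0.28, limma adjusted p = 0.02548) of the NRAMP genes.

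Among the 6 other NRAMP genes, NRAMP1, an iron and cadmium uptake transporter, was lower in salt roots and NRAMP6 was higher. NRAMP1 ranged from 9.05 to 12.19 (median 10.05) in salt roots, against 9.71 to 11.95 (median 10.96) in control roots, a difference of -0.84 (SE 0.22, limma adjusted p = 0.02111). It was lower than its control mean on 11 of 12 salt arrays, a count given without its share over all probe sets. Without the 3 arrays between genotypes its difference was -0.80 and did not pass (limma adjusted p = 0.1003), and the same held without IR29 control replicate 1 alone (-0.80, limma adjusted p = 0.05888) and with the clock covariate (-0.62, limma adjusted p = 0.08804). NRAMP6 ranged from 7.67 to 8.22 in salt roots, against 7.29 to 8.03 in control roots, a difference of 0.29 (SE 0.07, limma adjusted p = 0.0164), which was lost without IR29 control replicate 2 (0.25, limma adjusted p = 0.05377). NRAMP5, the manganese and cadmium uptake transporter, had 0.32 (SE 0.16, limma adjusted p = 0.2672), but passed without the 3 arrays (0.55, limma adjusted p = 0.03404) and with the clock covariate (0.59, limma adjusted p = 0.0006051).

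Of 4 other aluminium tolerance genes, EXPA10, an expansin gene that ART1 controls, was higher in salt roots. It ranged from 9.07 to 9.68 (median 9.45) in salt roots, against 8.78 to 9.25 (median 9.06) in control roots. Each of the 12 salt arrays exceeded its genotype's control mean, a count given without its share over all probe sets. The difference was 0.41 (SE 0.07, limma adjusted p = 0.0009186). It was also the 1 list gene to pass in a single genotype, FL478, at 0.61 (SE 0.13, limma adjusted p = 0.03565), where 0.96% of all probe sets passed. This call was lost without the 3 arrays between genotypes (0.62, limma adjusted p = 0.2042), and when any FL478 array except control replicate 2 was left out (0.54 to 0.66, limma adjusted p = 0.05378 to 0.174). In the other genotypes 0.341% (Pokkali), 0.343% (IR29) and 0.0717% (IR63731) of all probe sets passed and 0 of the 26 genes did by limma, although 5, 3 and 3 of them had an unadjusted p under 0.05 in Pokkali, IR29 and IR63731. STAR2, at 0.32 (SE 0.13, limma adjusted p = 0.1354), and STAR1, at -0.25 (SE 0.11, limma adjusted p = 0.1924), the parts of an ABC transporter needed for aluminium tolerance, did not pass, and neither did ART1 itself (0.02, SE 0.14, limma adjusted p = 0.9527). STAR2 and ART1 each have a second probe set, which had the opposite sign in FL478. There it stood at -0.17 for STAR2, against 0.19 for the first, and at 0.21 for ART1, against -0.23. None of these FL478 values passed, and the second probe sets are not given here for the mean of 4 genotypes. Without the 3 arrays between genotypes STAR2 passed (0.52, limma adjusted p = 0.002023), and STAR1 stood at -0.12 (limma adjusted p = 0.6417) and ART1 at 0.29 (limma adjusted p = 0.06801).

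HKT1;5, which takes sodium out of the xylem and whose link with MRS2-E was named above, had 1.03 (SE 0.35, limma adjusted p = 0.07892). It passed without the 3 arrays between genotypes (1.55, limma adjusted p = 0.005206) and with the clock covariate (1.47, limma adjusted p = 0.004892). Of 10 cation exchange and calcium pump genes, ACA8, a calcium ATPase gene, was higher, at 9.48 to 9.92 in salt roots, against 9.02 to 9.62 in control roots (difference 0.33, SE 0.07, limma adjusted p = 0.006766). Its second probe set had 0.20 (limma adjusted p = 0.1669). ACA10, the gene of this list with the highest mean signal, had 0.04 (SE 0.04, limma adjusted p = 0.6344), and 0.07 without the 3 arrays (limma adjusted p = 0.4614).

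With the replicate number as a block, 5 list genes were higher (ACA8, EXPA10, HKT1;5, NRAMP5 and NRAMP6) and 6 lower (CAX3, MRS2-B, MRS2-G, MRS2-I, NRAMP1 and STAR1). The block also brought to 4 the passing differences in single genotypes, adding NRAMP1 (-1.65) and STAR1 (-0.72) in FL478 and NRAMP5 (0.79) in Pokkali. Calls over all probe sets rose as well, from 1923 to 2919 lower in the mean of 4 genotypes. In single genotypes they rose from 549 to 1610 in FL478 and from 195 to 931 in Pokkali, so nothing is read from the gain in list genes. The mean 3 prime minus 5 prime value of control probe sets, a measure of RNA integrity, was 0.689 in salt roots and 0.603 in control roots. With it as a covariate, EXPA10 was the 1 list gene that passed (0.37, limma adjusted p = 0.0153), and the members stood at 0.81 for Nrat1, 0.48 for MRS2-E and -0.69 for MRS2-A.

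**Figure D5:**
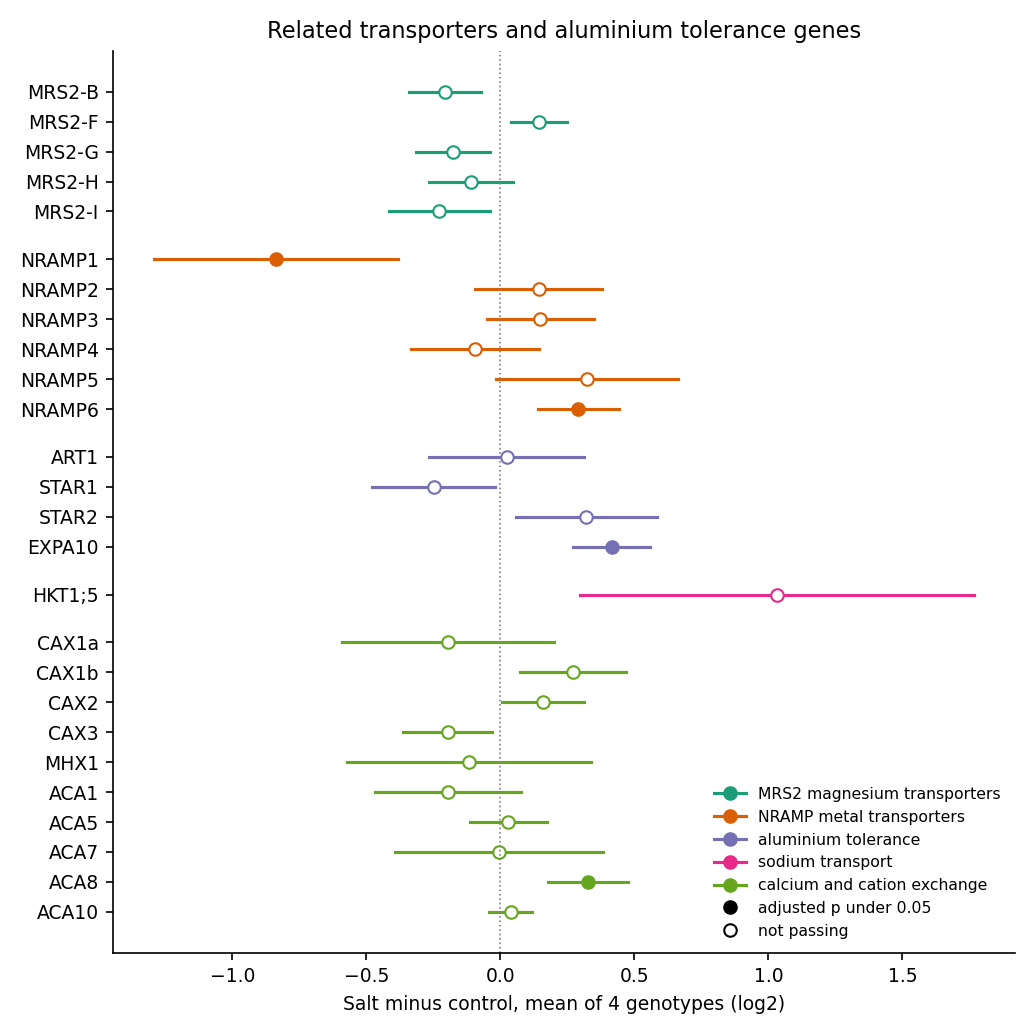
Salt minus control (log2, mean of 4 genotypes, x axis) with 95% intervals for the 26 other genes, grouped by list, filled where the limma adjusted p is under 0.05. EXPA10, ACA8 and NRAMP6 lie above 0 and NRAMP1 at -0.84, and none of the 5 MRS2 genes is filled.

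The list genes were also tested between replicate numbers. Here too the share over all probe sets includes those with no gene listed and is not matched on signal. In number 3 against number 2, 8 of 26 were higher by limma, or 30.8%, against 2.78% higher among all probe sets, and 0 were lower (15 and 1 at an unadjusted p under 0.05). These were HKT1;5 (1.37), MHX1 (0.94), CAX1a (0.84), NRAMP5 (0.67), STAR1 (0.40), CAX3 (0.31), NRAMP3 (0.29) and MRS2-B (0.25), named after their values were seen. MRS2-A and these 8 genes had the sign of CCA1. But CCA1 was picked for its likeness to MRS2-A, and the 8 genes for being higher in number 3. Nothing is therefore read from the shared sign. With all arrays MRS2-E and Nrat1 did not pass. MRS2-E had the opposite sign (-0.32, and -0.44 without the 3 arrays between genotypes).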

How the data were processed

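The authors deposited log2 values, 1 column per array, and the submitters' processing notes name RMA. Software, version and probe set definition: not given in the sources used here. Of 57381 probe sets, 123 AFFX controls and 64 reporters were left out. The annotation listed 1 gene for 22436 probe sets, several for 95 and none for 34663, and all 17905 genes were found in the RefSeq gene table. Of several probe sets of a gene, the one with the highest mean was used.

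The 8 groups were fitted as means over all 23 arrays (R 4.3.3, limma 3.58.1). Tests were two-sided, with p-values adjusted by Benjamini-Hochberg over 57194 probe sets and a threshold of 0.05. Intervals are at 95%, and precision is limited by how many arrays there are. The code was tested on simulated data. Tables and plots used Python 3.11.15, pandas 2.3.3 and matplotlib 3.10.9.

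The members and lists were chosen with earlier results of these data known. By rule the text names the members, list genes that passed or had the highest mean of their list, and the 3 named genes with the highest Pearson r to each member. Further list genes were named after their values were seen. Of the list entries, 37 matched no gene or several genes by name in the RefSeq gene table, which does not say whether the array measures them. Further listed genes were found but had no probe set of their own. Neither kind was analysed here.

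Replicate numbers were checked by the correlation of deviations of same-numbered salt and control arrays. These were 0.421, 0.197 and 0.287 in FL478 and 0.142, 0.296 and 0.252 in IR63731, all above the minimum of 0.1. They were -0.179 and 0.119 in IR29 and -0.066, -0.016 and 0.316 in Pokkali. The alternatives were the number as a block, array weights, quantile normalization again, a filter at the median probe set, other eBayes settings, only the arrays compared, and each array left out. The fits without the 3 arrays between genotypes and with a clock or a 3 prime minus 5 prime covariate were added after seeing the data.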

Additional observations from a re-analysis of the deposited data

How the results depend on the processing

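Of 987 alternative values for the members' salt and genotype differences, 985 moved by less than 1 SD between arrays within groups. The other 2, both without the 3 arrays between genotypes, were Nrat1 in FL478 salt against control (1.21) and in FL478 against IR29 control roots (-1.29). Of 447 salt differences of members the sign turned in 2, MRS2-A in IR29 at 0.15, without the 3 arrays and without IR29 control replicate 1. These turned values still lay within 1 SD. The 987 and 447 values include many that could not move. Leaving out an array of a group outside a comparison does not change its estimate in this fit. Leaving out arrays 1 at a time, the mean salt difference ranged from 0.73 to 0.83 for Nrat1, 0.41 to 0.52 for MRS2-E and -0.85 to -0.54 for MRS2-A. Between numbers 3 and 2, Nrat1 turned to -0.075 without the 3 arrays and ranged from -0.023 to 0.13 over single arrays (-0.010 without FL478 control replicate 3 and -0.023 without IR63731 control replicate 3). MRS2-E passed at -0.44 without the 3 arrays and ranged from -0.36 to -0.25, passing in 4 of 23 cases. List genes higher in the mean of 4 genotypes numbered 5 with the replicate block or array weights, 6 without the 3 arrays, 7 with the clock covariate, 1 with the 3 prime covariate and 2 to 5 with an array left out (5 without FL478 control replicate 3 or IR29 control replicate 1). Those lower numbered 6 with the block, 2 with quantile normalization, weights or the filter, 0 without the 3 arrays or with either covariate, and 0 to 2 with an array left out (0 without IR29 control replicate 1). Passing list genes in single genotypes numbered 4 with the block, 3 with the clock covariate, 2 with the filter, 0 with quantile normalization, the 3 arrays out, the 3 prime covariate or only the arrays compared, and 0 to 2 with an array left out. Probe sets higher in the mean numbered 1652 without the 3 arrays and 1006 with the 3 prime covariate, or 1942 to 3090 over single arrays; those lower, 2919 with the block, 1051 and 801, or 1315 to 2026. In FL478 the passing probe sets were 1610 with the block, 862 with the filter, 153 without the 3 arrays, 58 with only the arrays compared and 141 to 716 over single arrays. In IR29 they were 457 with the block, 24 without the 3 arrays, 376 with the clock covariate, 110 with the 3 prime covariate, 0 with only the arrays compared and 18 to 262 over single arrays. In IR63731 they were 199 with the block, 195 with weights, 118 and 19 with the covariates, 3 with only the arrays compared and 7 to 54 over single arrays. In Pokkali they were 931 with the block, 635 with weights, 26 with the 3 prime covariate, 26 with only the arrays compared and 62 to 230 over single arrays. The cause of these moves was not tested. Of the 3 genes most like each member, Spearman correlation kept 2 for Nrat1, 1 for MRS2-E and 2 for MRS2-A, and the group means 0, 0 and 1. Averaging a gene's probe sets could not differ, since each member has 1.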
